A study of Homo sapiens with 6 samples.

Results

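The 42 interferon-stimulated genes described here are a set fixed by name, and 38 of them have a row in the deposited gene table, out of 15917 genes listed. The table comes from total RNA sequencing of MDA-MB-231, an established human triple-negative breast cancer line with mesenchymal features. The series holds 6 libraries, with 2 from cells carrying a control hairpin (shCTRL), 2 from cells with the *RBMS3* hairpin shRBMS3-B3 and 2 from cells with shRBMS3-C3, which the labels call WT, RBMS3 KD1 and RBMS3 KD2. Hairpins were delivered by lentivirus, and no label names an interferon treatment. The authors' table gives one mean normalized count per gene over libraries, and no value of a single library or group was used, so what follows is the level of each gene across the experiment and not a comparison of knockdown with control.

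Interferons are secreted proteins, and cells release type I interferon when they sense foreign or misplaced nucleic acid. Type I interferon binds IFNAR1 and IFNAR2, the kinases JAK1 and TYK2 are activated, and a complex that includes STAT2 and IRF9 binds the interferon-stimulated response element (ISRE). Type II interferon acts mainly through another element, the gamma-activated site (GAS). The genes switched on encode RNA sensors, RNA-degrading enzymes, translation blockers and the ubiquitin-like modifier ISG15, and many are also transcribed at a low level in unstimulated tumor cells.

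The identity of the cells was checked on marker genes. Of 6 mesenchymal markers, *VIM*, *AXL*, *CAV1*, *CD44* and *ZEB1* were listed, with authors' mean normalized counts from 1034 for *ZEB1* to 69336 for *VIM*, and *SPARC* was not. The luminal receptors *ESR1* and *PGR* were not listed and the epithelial adhesion gene *CDH1* stood at 31.6, with *EPCAM* at 107 and *GATA3* at 171. *ERBB2*, the HER2 receptor gene, had a mean of 1557, above the median gene, and the keratins *KRT8* and *KRT18* were high at 17802 and 12689. The leukocyte markers *PTPRC*, *CD3E*, *CD14* and *ITGAM* were not listed. *RBMS3*, the gene targeted by the hairpins, had a mean of 272, which averages over libraries and therefore does not show the knockdown.

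Most interferon-stimulated genes were expressed below the middle of the listed genes. A long transcript collects more reads than a short one, so the mean normalized count was divided by the length of the representative transcript in kilobases wherever genes are compared. On this scale 9 of the 38 lay above the median listed gene and 29 below it, with 8 at or below percentile 25 and 4 at or below percentile 10. Their median was 81.1 per kb, against 137 per kb over the 15829 listed genes with a GENCODE entry and 152 per kb over the 12408 protein-coding ones. Members ranged 93.9-fold, from 14.4 per kb for *MX2* to 1355 per kb for *ISG15*. Together they made up 0.239% of the listed genes and 0.0652% of the summed mean normalized count, and the 5 with the highest counts (*EIF2AK2*, *STAT2*, *IFIT3*, *BST2* and *ISG15*) held 38.0% of the members' sum. The values carry no error, since the spread between libraries is not part of a mean, and members close in the order cannot be ranked with confidence. A low mean can stand for few cells with the transcript or for little of it in every cell, and these cannot be told apart.

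**Figure D1:**
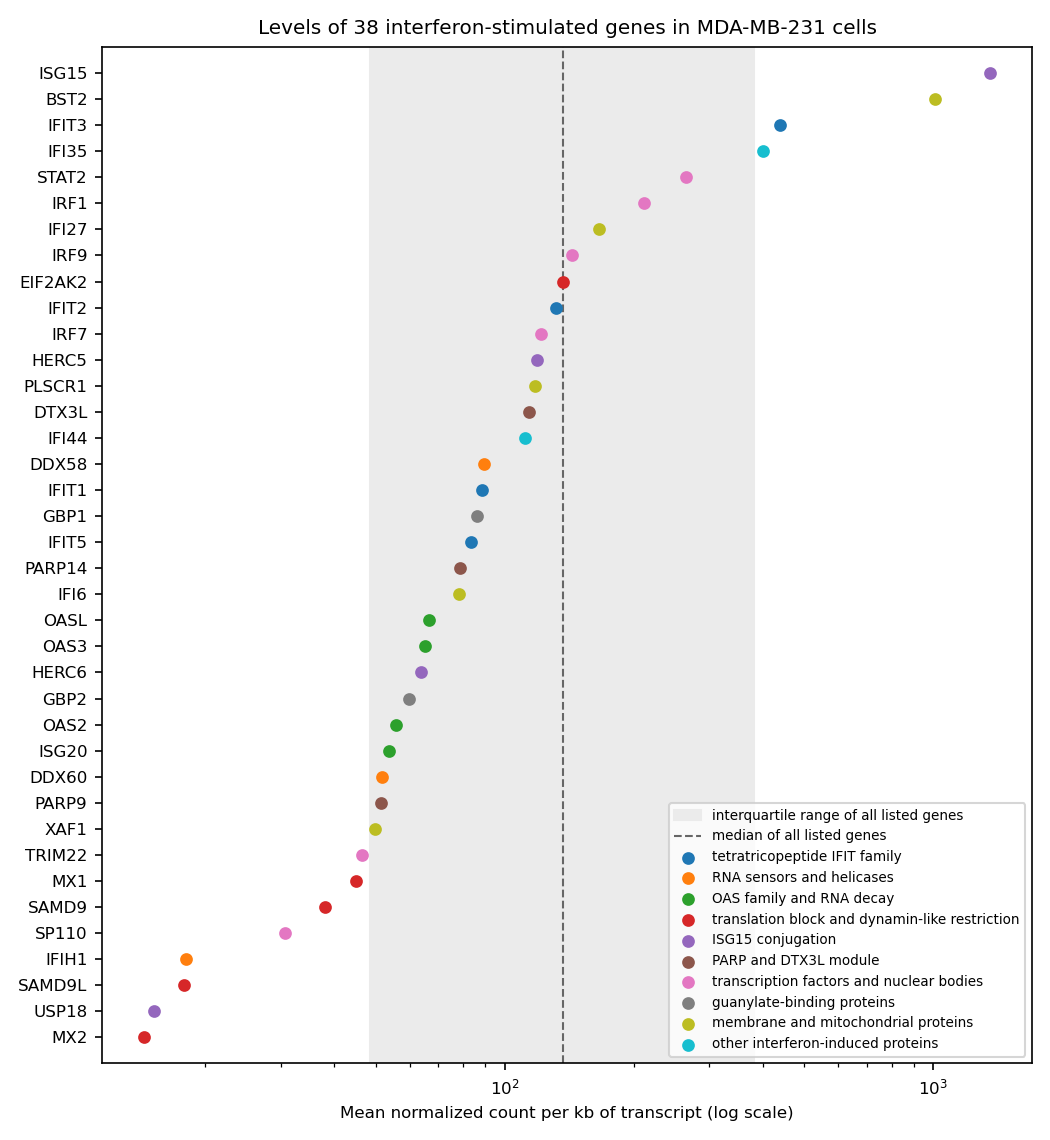
Level of each of the 38 listed interferon-stimulated genes, as the authors' mean normalized count per kb of transcript on a log scale, ordered by level and colored by role. The grey band is the interquartile range of all listed genes and the dashed line their median of 137 per kb. *ISG15* and *BST2* stand apart at the top, and *IFIH1*, *SAMD9L*, *USP18* and *MX2* at the bottom.

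The ISG15 system held both the highest member and one of the lowest. *ISG15* (ENSG00000187608, chr1:1001138-1014540, plus strand) encodes a ubiquitin-like protein that is attached to newly made proteins. Its mean normalized count was 863, or 1355 per kb of its 637-base transcript, which placed it at percentile 92.3 of listed genes and 9.93-fold above the median gene. HERC5 is the main ligase that attaches ISG15 in human cells, and *HERC5* was found at 119 per kb, 11.4-fold lower per kb and 2.06-fold lower by count. Its relative *HERC6* lay at 63.9 per kb. *USP18* encodes the protease that removes ISG15 and also restrains the interferon receptor, and at a mean of 28.2 it lay just above the lowest count in the table, 26.7. *USP18* was 89.1-fold below *ISG15* per kb and 30.6-fold by count. Of the 31-base stretches in the *USP18* transcript, 62.3% also occur in transcripts of other annotated genes, 33.0% in the near copy *USP41*, which was not listed. How the authors' quantification divided such reads was not tested, so the low value of *USP18* is uncertain.

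The 2 members highest per kb of transcript carried paired ISRE cores. These begin at -113 and -107 in *ISG15* and at -130 and -124 in *BST2*, counted from the start. The core searched was TTTC, any 2 bases and TTTC, or the reverse complement, in the RefSeq promoters of GRCh38.p14, which run from 250 bases before to 50 after a gene start. Each 30-base window below reads 5′ to 3′ on the strand of its gene, with the core in capitals. The window of *ISG15* is chr1:1013377-1013406 and that of *BST2* chr19:17405738-17405767 on the minus strand, and in both the second core begins inside the first.
ISG15: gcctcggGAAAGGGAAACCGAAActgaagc
BST2: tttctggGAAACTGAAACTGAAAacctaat

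*BST2* encodes tetherin, a membrane protein that holds budding virus particles at the cell surface. It reached a mean of 1008, or 1007 per kb, at percentile 89.8. The order of these 2 genes depended on the length used, since by count alone and per kb of coding sequence *BST2* was the higher. Among the other membrane and mitochondrial proteins, the phospholipid scramblase gene *PLSCR1* stood at 117 per kb, 8.57-fold below *BST2*. *IFI27* and *IFI6*, which encode small mitochondrial or membrane proteins, gave 166 and 78.4 per kb from means of only 120 and 63.7, because their transcripts are short. The apoptosis-associated *XAF1* lay at 49.9 per kb. *RSAD2*, which encodes viperin, and *CMPK2*, a mitochondrial nucleotide kinase, were not listed.

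Both short genes had repeated ISRE cores, and 2 of the 3 cores in *IFI6* were identical. In *IFI27* (chr14:94110625-94110654) 2 ISRE cores in opposite orientation flank a GAS core, TTC, any 3 bases and GAA, that overlaps both. *IFI6* (minus strand) held 3 ISRE cores, and the windows at chr1:27672329-27672358 and chr1:27672288-27672317 open with the same bases.
IFI27: cagTTTCGGTTTCctgGAAAATGAAAccta
IFI6, farther from the start: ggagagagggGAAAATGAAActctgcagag
IFI6, nearer to the start: ggagagagggGAAAATGAAActgcagagtg

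The IFIT genes encode tetratricopeptide proteins that bind viral RNA and block its translation. All 4 lie on the plus strand of chromosome 10 within 138 kb, and all 4 were listed. *IFIT3*, whose protein stabilizes IFIT1 in a complex, was the highest with a mean of 1052 and 440 per kb, the third highest member. *IFIT2* followed at 132 per kb, *IFIT1* at 88.3 and *IFIT5* at 83.3. The excess of *IFIT3* over *IFIT1* was 4.98-fold per kb of transcript and 2.70-fold per kb of coding sequence, so part of it rests on the length used, while its direction did not. *IFIT1* and *IFIT5* differed by 1.06-fold. Of the *IFIT1* transcript, 3.75% of 31-base stretches were shared with other genes, and of *IFIT5* 0.0750%.

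Every IFIT promoter that could be read held at least 2 ISRE cores. In *IFIT1* (chr10:89392504-89392533) they begin at positions -116 and -103, counted from the start. In *IFIT5* one begins at -45, and the other 2 share the window chr10:89414547-89414576, which crosses the start. *IFIT3* has 2 RefSeq starts with 2 cores each, and the core shown is the nearest to a start, at chr10:89332468-89332497. *IFIT2* had no entry in the promoter table.
IFIT1: tagTTTCACTTTCcccTTTCGGTTTCccta
IFIT3: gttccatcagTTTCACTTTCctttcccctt
IFIT5: agTTTCGATTTCttaagTTTCAGTTTCtga

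All 3 RNA sensor and helicase genes lay below the median gene. *DDX58*, which encodes RIG-I, a sensor of short RNA with a 5′ triphosphate, had a mean of 414 and 89.5 per kb. *IFIH1*, which encodes MDA5, a sensor of long double-stranded RNA, had a mean of 64.6 and 18.0 per kb, at percentile 9.29. The value for RIG-I transcript exceeded that for MDA5 transcript by 4.96-fold per kb of transcript and by 7.10-fold per kb of coding sequence. *DDX60*, a helicase gene linked to RIG-I signaling, lay between them at 51.6 per kb. In GENCODE, 96.6% of the *DDX58* 31-base stretches also occur in transcripts of ENSG00000288684, which was not listed, so the value of *DDX58* and this ratio are uncertain. The promoter of *IFIH1* had 3 ISRE cores, 2 of them in the window below, and that of *DDX58* (entered as RIGI) had none. *DDX60* had 2, of which the nearer to the start is shown.
IFIH1, chr2:162318821-162318850, minus strand: aattcgcTTTCCTTTTCTGTTTCccgcggt
DDX60, chr4:168318786-168318815, minus strand: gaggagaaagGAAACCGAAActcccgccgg

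The OAS genes encode enzymes that make 2′-5′-linked oligoadenylate on double-stranded RNA and so activate RNase L, and OASL is a relative without that activity. *OAS1*, *OAS3* and *OAS2* lie side by side within 106 kb of chromosome 12. The listed members were nearly level per kb, with *OASL* at 66.5, *OAS3* at 65.1 and *OAS2* at 55.8. Their means were less alike, at 218 for *OASL*, 430 for *OAS3* and 258 for *OAS2*. By count alone *OAS3* was 1.66-fold above *OAS2*, and per kb of coding sequence 1.05-fold. *OAS1* was not listed although its neighbor was, and the 31-base stretches of *OAS1* are not shared with any other gene. The exonuclease gene *ISG20* had a mean of 84.9 and 53.6 per kb.

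The PKR gene, the MX genes and the SAMD9 genes were mostly low per kb, with 4 of 5 at or below percentile 25. By count alone, *MX2* was the one gene of these at or below that percentile. *EIF2AK2* encodes PKR, the kinase that halts translation initiation on binding double-stranded RNA. It had the highest count of all members, 1365, at percentile 80.9 by count. Its representative transcript is 9975 bases long, and its level of 137 per kb lay at percentile 50.1, at the median gene. Per kb of coding sequence it lay at percentile 72.2 of protein-coding genes, so its place depends on the length used. *MX1* and *MX2* encode dynamin-like GTPases and are neighbors on chromosome 21. *MX1* was found at 44.9 per kb and *MX2* at 14.4 per kb, a 3.11-fold difference that was 2.53-fold by count. *SAMD9* and *SAMD9L*, paralogous antiviral genes that adjoin on chromosome 7, lay at 38.1 and 17.9 per kb.

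*EIF2AK2* (minus strand, chr2:37156967-37156996) has an ISRE core that begins at -6 and so spans the start. In *MX1* (chr21:41420559-41420588) the core shown begins at 12, after one of 3 starts. Another *MX1* core begins at -196 of a different start. *SAMD9* has a core at -136 and *SAMD9L* has none.
EIF2AK2: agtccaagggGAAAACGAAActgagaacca
MX1: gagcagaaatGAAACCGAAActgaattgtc

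*PARP9* and *DTX3L* encode partners in a complex of an ADP-ribosyltransferase family member with a ubiquitin ligase, and *PARP14* is a further ADP-ribosyltransferase gene 116261 bases from *PARP9*. The representative transcripts of *PARP9* and *DTX3L* start 38 bases apart and run in opposite directions on chromosome 3. A single ISRE core at chr3:122564332-122564341 begins at -6 of *DTX3L*, and so spans its start, and at -41 of one start of *PARP9*, and it reads as reverse complement from the other side.
DTX3L, plus strand: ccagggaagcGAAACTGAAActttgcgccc
PARP9, minus strand: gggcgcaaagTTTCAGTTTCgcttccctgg

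The transcripts on either side of this core were not equally abundant. *DTX3L* had a mean of 657 and 114 per kb, and *PARP9* a mean of 157 and 51.4 per kb. The ratio was 2.22 per kb of transcript, 4.20 by count and 4.64 per kb of coding sequence, in the same direction on each scale. *PARP14* had a mean of 606 and 78.8 per kb.

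In the group of transcription factor and nuclear body genes, 3 of 6 genes lay above the median gene and 2 at or below percentile 25. The share above the median was larger than the 9 of 38 among all listed members, but no larger than among all listed genes. It also rested on *IRF9*, which lay at percentile 51.3 per kb, 48.5 among protein-coding genes and 39.9 by count. *STAT2* had a mean of 1168 and 265 per kb, at percentile 66.6. *IRF9*, the DNA-binding subunit of the complex, had 144 per kb, 1.85-fold below *STAT2*. That value is uncertain, because 92.9% of its 31-base stretches also occur in transcripts of ENSG00000259529, which the table lists separately with a mean of 81.6. *IRF1*, a factor induced by type II interferon, lay at 211 per kb, and *IRF7*, which amplifies type I interferon production, at 122. *SP110* and *TRIM22*, genes of a nuclear body protein and of a tripartite motif antiviral protein, were lower at 30.7 and 46.4 per kb.

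None of the 4 genes of this group with a promoter entry held an ISRE core. *IRF1* (minus strand, chr5:132490878-132490907) and *IRF9* (chr14:24161192-24161221) each held 1 GAS core, shown in capitals below, and no ISRE core. *SP110* also held a GAS core, and *STAT2* held neither in this window.
IRF1: acagcctgatTTCCCCGAAatgacggcacg
IRF9: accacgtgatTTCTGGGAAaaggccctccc

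Of the remaining members, *GBP1* and *GBP2*, which encode interferon-induced GTPases acting on intracellular pathogens, gave 86.0 and 59.9 per kb and had almost equal means of 248 and 245. For *GBP1*, 26.8% of 31-base stretches are shared with other genes, mainly the pseudogene *GBP1P1*. *IFI35* was the fourth highest member at 400 per kb, and *NMI*, the gene of its binding partner, lay at 143 per kb. *IFI44* had a mean of 188 and 111 per kb. *IFI44L*, which ends 3650 bases before *IFI44* begins, was not listed. Its promoter repeats one 30-base stretch exactly, at chr1:78620274-78620303 and at chr1:78620365-78620394, with an ISRE core in each copy.
IFI44L, both copies: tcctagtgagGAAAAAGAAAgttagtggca

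Counted over the set, 34 of the 42 members had a RefSeq promoter, and 23 of these (67.6%) held an ISRE core. The share among all 27305 genes with a RefSeq promoter was 4.38%, and among listed genes 3.97%. At least 2 cores were present in 13 members, in some of them overlapping. The share of all genes with at least 2 was not counted. The core nearest to a start began at a median position of -69, from -145 to 12. A GAS core was found in 11 members (32.4%), against 9.38% of all genes. Both kinds were present in 6 members, and the share of all genes with both was not counted. *STAT2*, *DDX58*, *HERC6*, *XAF1*, *SAMD9L* and *CMPK2* had neither, which says only that these letters are not in these windows. No entry was found for *IFIT2*, *IRF7*, *OASL*, *GBP2*, *OAS2*, *TRIM22*, *USP18* and *MX2*.

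**Figure D2:**
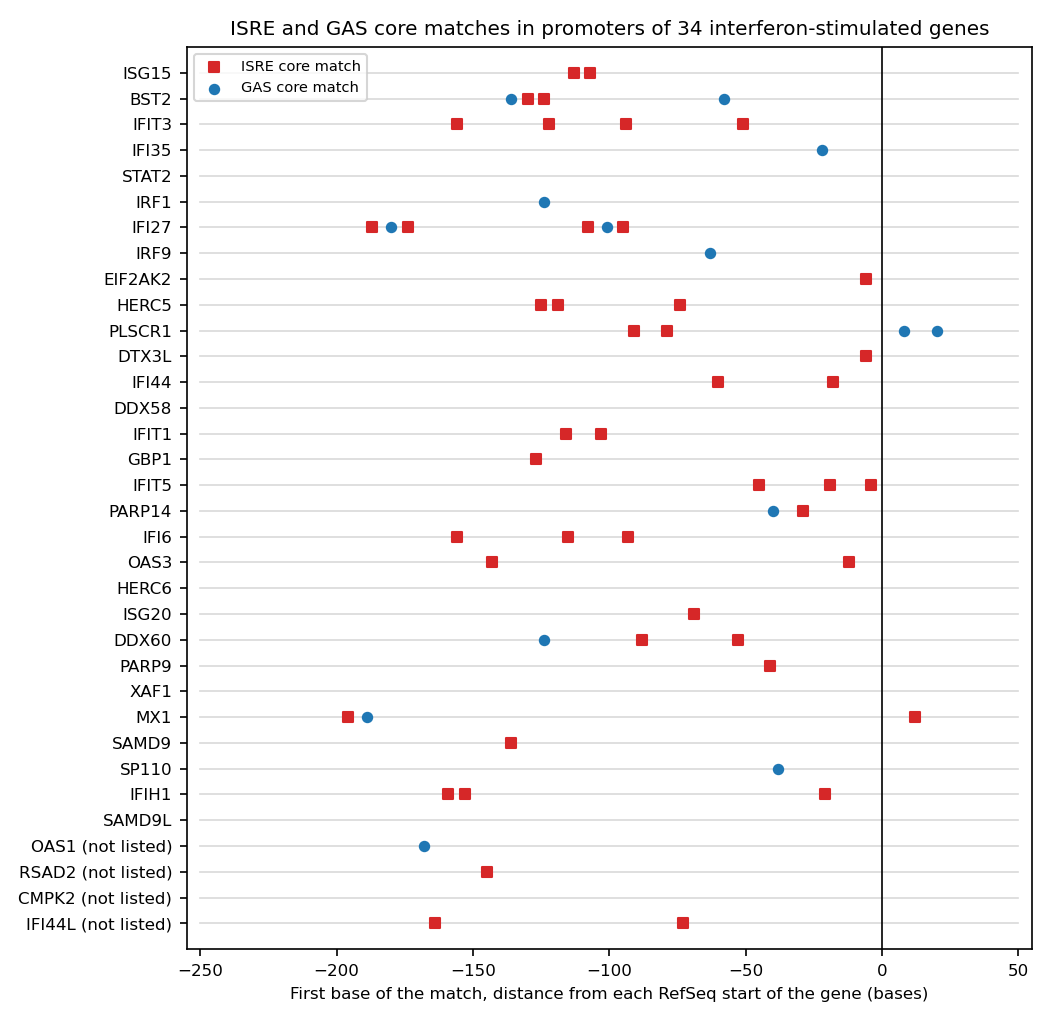
Position of ISRE (red squares) and GAS (blue circles) core matches in the promoters of 34 members, in bases from each RefSeq start, with members ordered by level from the top and the 4 that the table does not list at the bottom. A gene with more than 1 start shows a match once per start. Most cores lie within 150 bases before a start, and they occur in members of high and of low level.

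Members with and without an ISRE core had similar medians. The 21 listed members with a core had a median of 86.0 per kb, from 18.0 for *IFIH1* to 1355 for *ISG15*, and the 9 without one a median of 89.5, from 17.9 for *SAMD9L* to 400 for *IFI35*. Per kb of transcript, the 3 highest members (*ISG15*, *BST2* and *IFIT3*) all had a core and lay above every member without one. Below them the ranges overlapped. By count alone this did not hold, since *STAT2*, without a core, had a mean of 1168, above *IFIT3* (1052), *BST2* (1008) and *ISG15* (863). Per kb of coding sequence *IRF1*, without a core, lay at percentile 70.4 of protein-coding genes, above *IFIT3* at 68.4. With a GAS core the median was 131 per kb over 10 members, and without one 84.6 over 20.

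Beside these, 56 other genes of the interferon pathway were taken from fixed lists, of which 45 were listed with a median of 152 per kb. None of 8 interferon genes, among them *IFNB1*, *IFNE* and *IFNL1*, was listed. All 9 receptor and Janus kinase genes were. *IFNAR1*, at 83.6 per kb, was 2.05-fold above *IFNAR2*, at 40.8. The type II receptor genes *IFNGR1* and *IFNGR2* gave 124 and 270 per kb, and the chain for type III interferon, *IFNLR1*, 35.2. Its shared partner chain *IL10RB* stood at 120. *TYK2* and *JAK1* were high at 475 and 368 per kb, and *JAK2* was low at 19.6.

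Among the sensing genes, *CGAS* (listed as *MB21D1*) lay at 227 per kb and *STING1* (listed as *TMEM173*), the adaptor it activates, 2.52-fold lower at 90.1. *MAVS*, the adaptor of RIG-I and MDA5, had 233 per kb, from a mean of 2737 and a transcript of 11731 bases. By count it lay at percentile 91.4, and per kb of coding sequence at 86.2 of protein-coding genes. The ISG15-conjugating enzyme gene *UBE2L6* stood at 252 per kb and the activating enzyme gene *UBA7* at 61.3. A further 16 interferon-induced genes outside the 42 gave 15 listed genes with a median of 316 per kb, and 11 of these lay above the median listed gene. Their highest values were 2236 per kb for *LGALS3BP*, a secreted glycoprotein gene, and 2155 for *IFITM3*, an endosomal restriction factor gene. *IFITM1*, the neighbor of *IFITM3*, was 39.7-fold below it at 54.3 per kb. Its mean was only 36.2, near the lowest listed count of 26.7. Stretches shared with other genes were examined only for the 42 genes, so their effect on this ratio was not tested. No test compares these lists with the 42 genes.

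**Figure D3:**
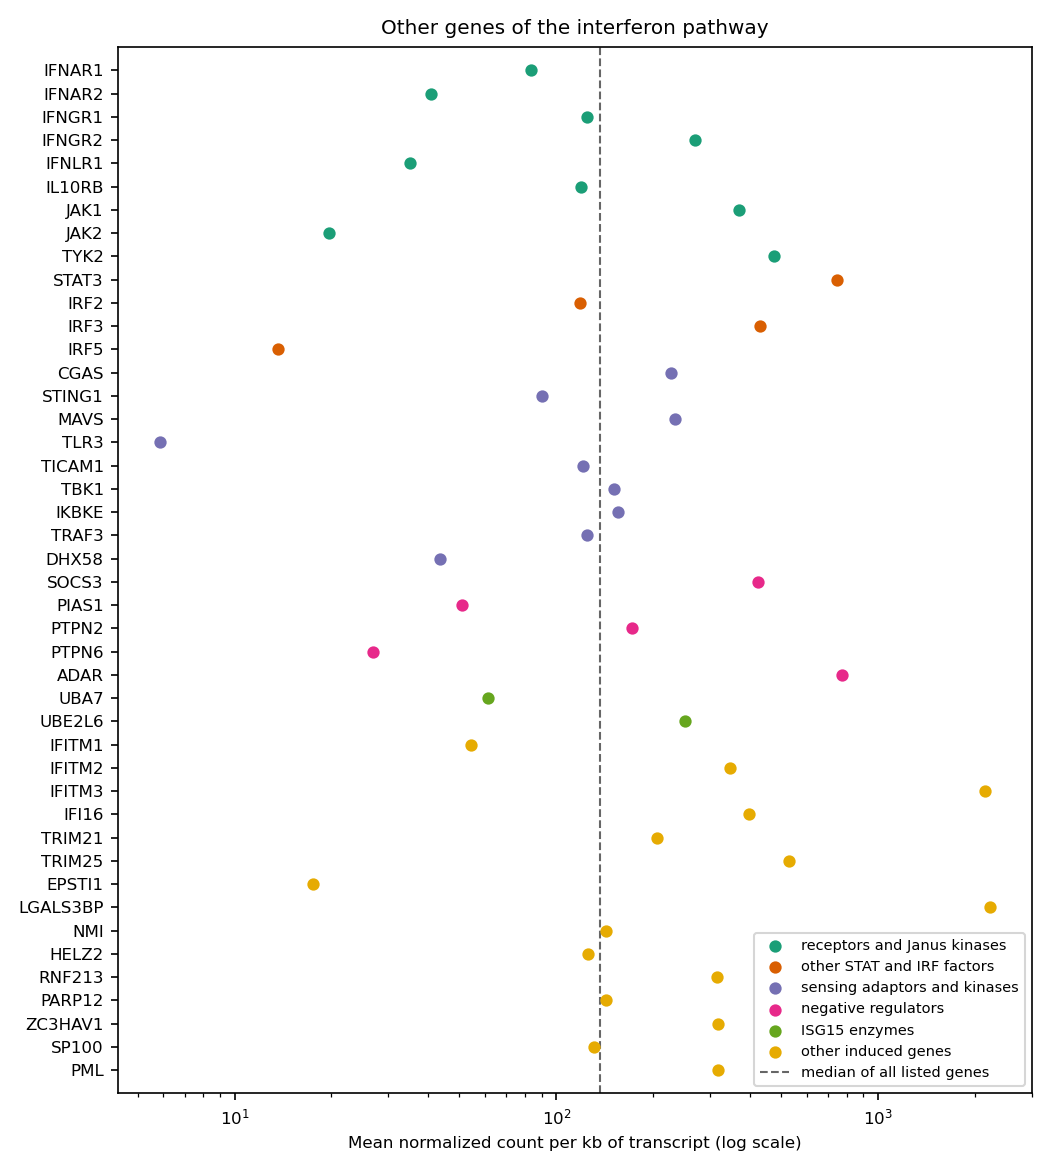
Levels of 44 of the 45 listed genes of the interferon pathway outside the 42, as the authors' mean normalized count per kb of transcript on a log scale, grouped by role in color. The dashed line is the median of all listed genes, 137 per kb; *LGALS3BP* and *IFITM3* lie highest and *TLR3* lowest.

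The distributions differed in shape as well as in the middle. The interquartile range of the listed members was 51.5 to 129 per kb, narrower than the 48.6 to 383 per kb of all listed genes. Its lower limit was thus close to that of all genes, and the upper limit lay below their median.

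**Figure D4:**
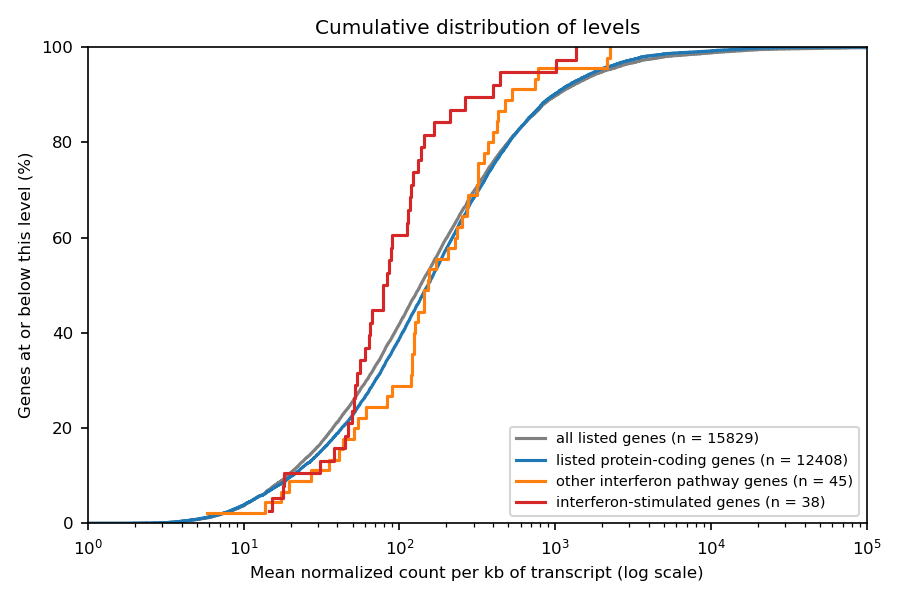
Cumulative share of genes (%) at or below a given mean normalized count per kb of transcript (log scale) for all listed genes, protein-coding genes, 45 other interferon pathway genes and the 38 listed members. The line of the members crosses the median at 81.1 per kb, to the left of the line of all listed genes, which does so at 137 per kb.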

How the data were processed

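Total RNA of MDA-MB-231 cells was sequenced by the authors after depletion of ribosomal cDNA, in 6 stranded libraries (2 each of shCTRL, shRBMS3-B3 and shRBMS3-C3). The submitters' processing notes name Salmon, DESeq2 and hg38, without versions. The deposited signal used here is a mean normalized count over libraries, 1 value per gene, at least 26.7 in every row. The paper describes a comparison of 2 knockdown with 2 control replicates, and which of the 6 libraries entered the deposited mean is not stated; the depth per library is unknown. The other columns of the authors' table hold the log2 fold change, standard error, statistic, p-value and adjusted p-value of their own comparison and were not used. The design foresaw a count test for counts per library, which was not run, so no test is reported. Some items of the lists are not reported here.

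Transcript lengths were taken from GENCODE release 44 (GRCh38), in which 88 listed identifiers have no entry. The paper names an earlier release for its decay-rate measurements. The representative transcript was MANE Select, else Ensembl canonical, else the longest. Promoters are from RefSeq. Transcripts were compared by shared 31-base stretches on the same strand. Members and lists were chosen with earlier results of these data known. All listed members are named, with pathway genes above percentile 90, receptors, *STING1* and markers; other pathway genes shown were picked after their values were seen. The motif search and percentiles were tested on simulated data. In these only planted motifs could match, so matches by chance were not tested. Python 3.11.15, pandas 2.3.3, numpy 2.4.6, SciPy 1.17.1 and matplotlib 3.10.9 were used.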

Additional observations from a re-analysis of the deposited data

How the results depend on the processing

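Over 6 results and 16 alternatives, all planned, 7 left a count within 1.5 times of its main value, and the other 9 are given here. The median percentile was judged by a narrower rule, an interval for a share among the listed genes. Its alternatives fell outside that interval but within 1.5 times of the main value. The 9 members above the median listed gene became 14 when the mean normalized count was not divided by length. The 1 member above percentile 90 became 2 among protein-coding genes, and 0 without division by length or per kb of coding sequence. The median percentile of the listed members, 36.6, was 33.6 among protein-coding genes, 41.1 without division by length and 27.0 per kb of coding sequence, below 50 in each. The 11 members with a GAS core became 3 (8.82%) with the longer palindrome TTCC, any base and GGAA, against 1.44% of all genes. They became 6 (17.6%) when the promoter began 100 bases before the start, against 4.29% of all genes. With 1 mismatch allowed 30 of 34 members had an ISRE core, but so had 37.7% of all genes. A minimum mean normalized count of 50 left 36 listed members and one of 100 left 33. Other normalizations, filters on counts per library, left-out replicates, single hairpins and other tools were not run, since they need counts per library. No paired analysis was possible because the mean normalized count carries no replicate. Depth per library is unknown: 5 listed members had a mean under 100, and for the 4 not listed no level is given here.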

Other observations

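Of the 42 representative transcripts, 22 shared under 1% of their 31-base stretches with any other annotated gene and 6 shared over 10%. Beside those named above, *IFI6* shared 24.3% in all and 23.8% with *LINC02574*, which was not listed, and *IRF1* shared 13.6%, with at most 3.04% in any single gene.

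*CMPK2* and *RSAD2*, neighbors on opposite strands of chromosome 2 within 57.7 kb, were the one adjacent pair of members of which neither gene was listed.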
